A study of Homo sapiens with 9 samples.

Results

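The genes described here code for the proteasome, the protease complex that degrades ubiquitin-tagged proteins, and for the chaperones that assemble it. Members were probe sets with exactly 1 gene symbol starting with PSMA, PSMB, PSMC, PSMD or PSMG and a digit, without hyphenated symbols and pseudogenes, and each gene was represented by its probe set with the highest mean over the 9 arrays. This gave 38 of the 19775 genes measured. They comprised 7 genes of the alpha rings of the core, 7 constitutive genes of the beta rings, 2 immuno-subunits, 14 genes of the cap (5 ATPases, 3 other base subunits and 6 lid subunits), 7 assembly chaperones, and PSMC3IP, a meiotic recombination factor that the symbol rule also caught. PSMA6, PSMC5, PSMD7, PSMD13, PSMB11 and the third catalytic immuno-subunit were not analysed here. All arrays came from the Daudi line, B cells grown from a Burkitt lymphoma, the tumour in which a translocation places MYC under an immunoglobulin enhancer. Cells were infected with a control hairpin (Ctrl-sh), a hairpin against the amino acid transporter gene SLC7A5 (Slc7a5-sh) or a hairpin against the transcription factor gene MYC (C-Myc-sh, used by the study as a positive control), and all 3 groups were then held in puromycin for 48 h. Each group had 3 arrays of total RNA. The labels call the arrays biological replicates without saying whether they came from separate infections, so p-values measure the spread between these arrays, and the hairpin sequences and any second hairpin per gene are not given there.

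The proteasome core is a barrel of stacked rings: the outer alpha rings form a gated entry, and the inner beta rings carry the proteolytic sites. A cap with a ring of ATPases unfolds substrates and threads them in, while its lid removes ubiquitin and its base binds it. PSMB5, PSMB6 and PSMB7 hold the constitutive catalytic sites, and in lymphoid cells or after interferon the immuno-subunits PSMB8 and PSMB10 take the places of PSMB5 and PSMB7, which changes the peptides made for MHC class I. The chaperone pairs PSMG1 with PSMG2 and PSMG3 with PSMG4 help to build the alpha ring, and PSMD5, PSMD9 and PSMD10 help to build the ATPase ring. The factor NFE2L1 is known to raise transcription of most subunit genes when proteasome activity is low.

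The promoters of 5 members are printed because they are the 2 immuno-subunits, which rose in C-Myc-sh, and the 3 chaperones that fell most there, and 1 motif is shared by a gene of each kind. RefSeq promoters of build GRCh38.p14 were matched by symbol for 32 of the 38 members. Each line is the stretch just before the annotated start, 5′ to 3′ on the strand of the gene, with motif matches in capitals. The motifs searched on both strands were CACGTG (the E-box bound by MYC and MAX, among others), TGACNNNGC (the antioxidant response element bound by NFE2L1 and NFE2L2), GAAA followed by any 2 bases and a second GAAA (the interferon-stimulated response element), TTCNNNGAA (a STAT site) and CCAAT (bound by NF-Y, not capitalised here). The coordinates are chr16:67936851-67937000, minus strand, for PSMB10; chr6:32844048-32844197, minus strand, for PSMB8; chr6:3258797-3258946, plus strand, for PSMG4; chr21:39183452-39183651, minus strand, for PSMG1; and chr12:121888590-121888789, plus strand, for PSMD9.
PSMB10: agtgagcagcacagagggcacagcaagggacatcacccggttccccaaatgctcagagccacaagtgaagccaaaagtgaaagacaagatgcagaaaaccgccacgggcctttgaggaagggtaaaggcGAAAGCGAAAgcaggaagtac
PSMB8: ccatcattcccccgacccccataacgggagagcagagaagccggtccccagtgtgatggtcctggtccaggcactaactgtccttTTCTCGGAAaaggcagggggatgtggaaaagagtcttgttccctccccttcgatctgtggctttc
PSMG4: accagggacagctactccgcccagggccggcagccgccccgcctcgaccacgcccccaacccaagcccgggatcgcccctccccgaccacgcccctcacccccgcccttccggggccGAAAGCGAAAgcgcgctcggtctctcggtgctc
PSMG1: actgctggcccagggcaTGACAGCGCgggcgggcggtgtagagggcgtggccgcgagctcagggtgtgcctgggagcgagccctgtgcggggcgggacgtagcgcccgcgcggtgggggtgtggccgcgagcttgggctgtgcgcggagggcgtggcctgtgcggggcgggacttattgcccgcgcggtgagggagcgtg
PSMD9: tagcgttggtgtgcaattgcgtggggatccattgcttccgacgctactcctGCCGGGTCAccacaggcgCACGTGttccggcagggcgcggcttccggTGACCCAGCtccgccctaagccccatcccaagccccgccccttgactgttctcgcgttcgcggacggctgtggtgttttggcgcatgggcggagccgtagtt

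PSMB10 and PSMG4 held the same letters, GAAAGCGAAA, close to their starts, although the first rose and the second fell in C-Myc-sh cells. In the 250 bases before a start, the E-box stood in 2 of 32 members (PSMB3 and PSMD9), or 6.25%, against 7.73% of the 27305 genes with a promoter in the table. The antioxidant response element stood in 8 members (25%, against 13.2% of genes): PSMA4, PSMB3, PSMD3, PSMD5, PSMD9, PSMD12, PSMG1 and PSMG2. The interferon-stimulated response element stood in PSMA4, PSMB4, PSMB10 and PSMG4 (12.5%, against 3.71%). The STAT site stood in PSMA2, PSMA8, PSMB5, PSMB8, PSMC4 and PSMD3 (18.8%, against 8.09%), and CCAAT in 15 members (46.9%, against 37%). In members, matches of different motifs overlapped 0 times. A match is a run of letters, not a measured binding site, and 6 members had several promoters in the table, any of which could hold the match.

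Values are log2 signals, as the authors deposited them, scaled to 1 target on every array; they compare a gene across arrays but not 1 gene with another. Each array was scaled, so the total RNA of a cell stays unmeasured, and less RNA per cell cannot be told apart from fewer cells of a type. Array medians lay between 6.05 and 6.26. In C-Myc-sh, MYC stood at 46.9% of control (log2 change -1.09, SE 0.05, adjusted p = 4.7e-10) and in Slc7a5-sh at 78.7% (log2 change -0.35, SE 0.05, adjusted p = 0.00038). SLC7A5 fell in both as well, with log2 changes of -0.41 (SE 0.07, adjusted p = 0.00019) and -0.32 (SE 0.07, adjusted p = 0.0041). Of 7 B-cell markers measured, all 7 were above the filter level in every group, with summed linear signals of 31134 to 34671 in Ctrl-sh, 29206 to 30446 in Slc7a5-sh and 42643 to 46024 in C-Myc-sh. Of 7 T- and NK-cell markers, 1 was above that level in each group, and their summed signals were 218 to 268, 155 to 314 and 226 to 279. Of 5 myeloid markers, 1, 0 and 1 were above it, with sums of 141 to 192, 110 to 319 and 141 to 251, and of 7 epithelial and fibroblast markers, 2, 3 and 2, with sums of 496 to 762, 497 to 616 and 450 to 608. The part of the higher B-cell marker sum of C-Myc-sh in the results below was not tested.

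Proteasome genes were among the brighter probe sets and varied little between arrays. The 37 tested members had mean log2 signals of 9.92 to 14.24, against a filter level of 5.77, and their SDs within a group of 3 arrays ran from 0.0095 to 0.19 with a median of 0.068 on the log2 scale. A gene was called where the adjusted p of limma, over 11250 genes, was under 0.05. In Slc7a5-sh, 3 of 37 members were called higher, against 14.3% of all genes tested, and 4 lower, against 11.0%; over both directions the shares were 18.9% and 25.3%. The members' shares were 8.11% and 10.8%, and their median log2 change was 0.04 against 0.03 over all genes. Leaving out 1 array moved these counts to 1 higher and 2 lower without Ctrl-sh replicate 3 and also without Slc7a5-sh replicate 3. It gave 2 and 2 without Ctrl-sh replicate 1 and 3 and 2 without Ctrl-sh replicate 2. Quantile normalization gave 5 higher and 3 lower, beside 1583 higher and 1211 lower of all 11256 genes tested.

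More members changed in C-Myc-sh, as did more genes of the array. Of the 37, 17 were called lower, a share of 45.9% against 26.2% of all genes tested, and 6 higher, 16.2% against 28.7%, when arrays were compared as the authors scaled them, but quantile normalization gave 13 lower and 13 higher. After that normalization, 3093 of all 11256 genes tested were called lower and 3083 higher. As deposited, over both directions 62.2% of the members were called, against 54.9% of all genes. The median log2 change of the members was -0.14, against 0.04 over all genes, and 0.04 after quantile normalization. In Slc7a5-sh the arrays did not overlap control for 8 members above it (21.8% of all genes) and 6 below it (18.0%). The 3 C-Myc-sh arrays lay below all 3 control arrays for 22 members (29.1% of all genes did so) and above them for 7 (33.2% of all genes). Without Ctrl-sh replicate 3 the calls were 3 higher and 14 lower. The 9 members with the largest changes in C-Myc-sh as deposited were called in the same direction after quantile normalization: PSMG1, PSMG4, PSMD3, PSMD8, PSMD9, PSMA2 and PSMB6 fell, and PSMB8 and PSMB10 rose. Both knockdowns share the control arrays, so their changes are given side by side for each member.

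**Figure D1:**
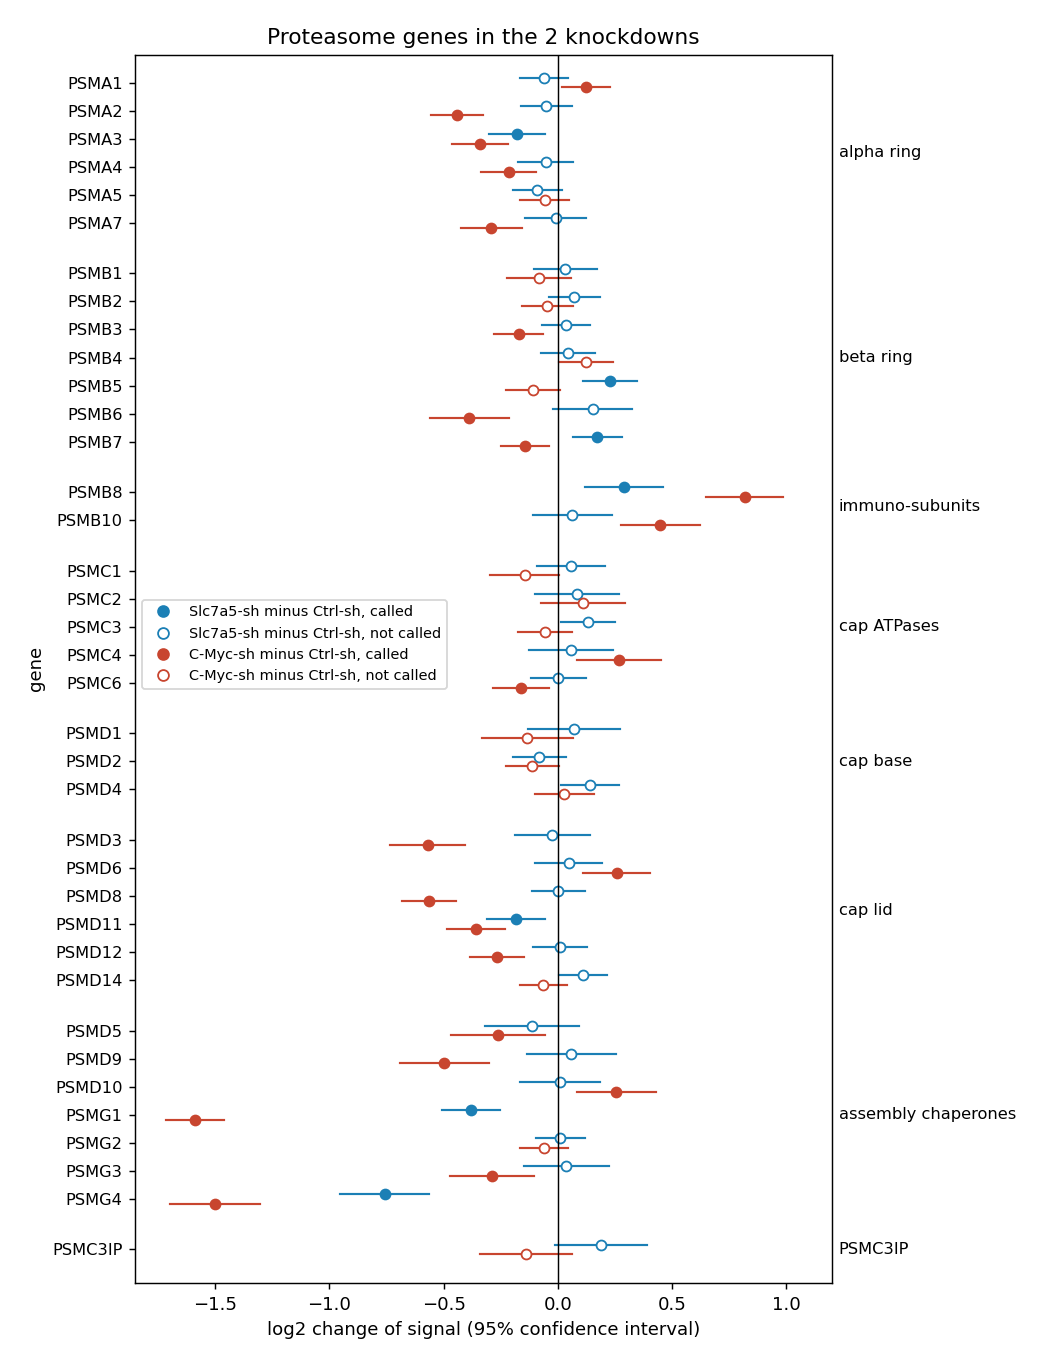
Log2 change of signal against Ctrl-sh (x axis) for the 37 tested members (y axis, by role) in Slc7a5-sh (blue) and C-Myc-sh (red); lines are 95% confidence intervals from the limma fit, filled points are called at an adjusted p under 0.05. PSMG1 and PSMG4 lie farthest to the left in both knockdowns, and PSMB8 farthest to the right.

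The assembly chaperones held the 2 largest changes of the set. In C-Myc-sh, 5 of the 7 fell and PSMD10 rose, with a median log2 change of -0.29. Called over both directions were 85.7% of the chaperones, against 54.9% of all genes tested. Quantile normalization gave 5 lower and 2 higher. Without probe sets ending in _s_at or _x_at, 6 chaperones had a value, with 3 lower and 0 higher (median -0.17). In that setting 2067 of all 8817 genes tested were called lower and 2501 higher. PSMG1, which pairs with PSMG2, measured 13.29, 13.21 and 13.35 on the Ctrl-sh arrays, 12.93, 12.92 and 12.86 in Slc7a5-sh, and 11.61, 11.72 and 11.77 in C-Myc-sh. The 3 groups did not overlap, with Slc7a5-sh between the other two. PSMG1 fell to 76.8% of control in Slc7a5-sh (log2 change -0.38, SE 0.06, adjusted p = 0.00034) and to 33.3% in C-Myc-sh (-1.59, SE 0.06, adjusted p = 2.6e-11). Its partner PSMG2 measured 13.52, 13.47 and 13.51 in Ctrl-sh, 13.49, 13.56 and 13.49 in Slc7a5-sh, and 13.42, 13.50 and 13.41 in C-Myc-sh. The groups of PSMG2 overlapped, its C-Myc-sh change of -0.06 (95% confidence interval -0.17 to 0.05) was not called, and quantile normalization turned it to 0.17 with an adjusted p of 0.0061.

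PSMG4, the partner of PSMG3, showed the second large fall. It measured 11.18, 11.10 and 10.90 in Ctrl-sh, 10.36, 10.22 and 10.32 in Slc7a5-sh, and 9.55, 9.48 and 9.64 in C-Myc-sh. Again no array of a group overlapped another group and Slc7a5-sh lay in between. PSMG4 fell to 59.1% of control in Slc7a5-sh (log2 change -0.76, SE 0.09, adjusted p = 5e-05) and to 35.4% in C-Myc-sh (-1.50, SE 0.09, adjusted p = 3.9e-09). This rests on 1 probe set ending in _s_at, which can also bind related transcripts; the other probe set used in its place had a mean log2 signal of 5.93, near the filter level, and gave 0.38 for Slc7a5-sh and -0.08 for C-Myc-sh, both uncalled. PSMG3 measured 11.42, 11.46 and 11.53 in Ctrl-sh, 11.42, 11.39 and 11.72 in Slc7a5-sh, and 11.12, 11.29 and 11.14 in C-Myc-sh. All 3 C-Myc-sh arrays of PSMG3 were below the rest, a change of -0.29 (SE 0.09, adjusted p = 0.011), while Slc7a5-sh overlapped control (0.04, SE 0.09).

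Within each array, the log2 difference of PSMG1 minus PSMG2 fell by 1.53 from Ctrl-sh to C-Myc-sh and by 0.39 to Slc7a5-sh, with within-group SDs from 0.05 to 0.09 (n = 3 each). The difference of PSMG4 minus PSMG3 fell by 1.21 and by 0.80, with within-group SDs from 0.17 to 0.19. These pairs were chosen after their values were seen, so no test is given. In Slc7a5-sh the partners PSMG2 and PSMG3 themselves stood at 0.01 and 0.04 from control, uncalled, and the PSMG4 values rest on its probe set ending in _s_at.

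Of the chaperones of the ATPase ring, PSMD9 measured 11.63, 11.63 and 11.67 in Ctrl-sh, 11.82, 11.52 and 11.77 in Slc7a5-sh, and 10.97, 11.30 and 11.17 in C-Myc-sh. Its C-Myc-sh arrays were all below the others, at 70.8% of control (log2 change -0.50, SE 0.09, adjusted p = 0.00028), and Slc7a5-sh overlapped control (0.06, SE 0.09). The probe set of PSMD9 ends in _s_at. Its other one, also ending in _s_at, had a mean log2 signal of 7.64 and gave -0.29 (SE 0.24) in C-Myc-sh. PSMD5 measured 11.03, 10.95 and 11.17 in Ctrl-sh, 11.16, 10.80 and 10.85 in Slc7a5-sh, and 10.70, 10.85 and 10.81 in C-Myc-sh. The fall of PSMD5 in C-Myc-sh was small (-0.26, SE 0.10, adjusted p = 0.031) and its call was lost in 6 of 18 alternatives. The mean of its probe sets gave 0.61, and took in a probe set with a mean log2 signal of 3.02, below the filter level. PSMD10, also known as gankyrin, measured 12.11, 12.22 and 12.08 in Ctrl-sh, 12.17, 12.25 and 12.02 in Slc7a5-sh, and 12.53, 12.22 and 12.42 in C-Myc-sh. PSMD10 was the only chaperone called higher in C-Myc-sh as deposited, where 1 array lay at the highest control and the other two above it (0.26, SE 0.08, adjusted p = 0.015); a second probe set without cross-hybridisation marking gave 0.05, and the call was lost in 5 of 18 alternatives.

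**Figure D2:**
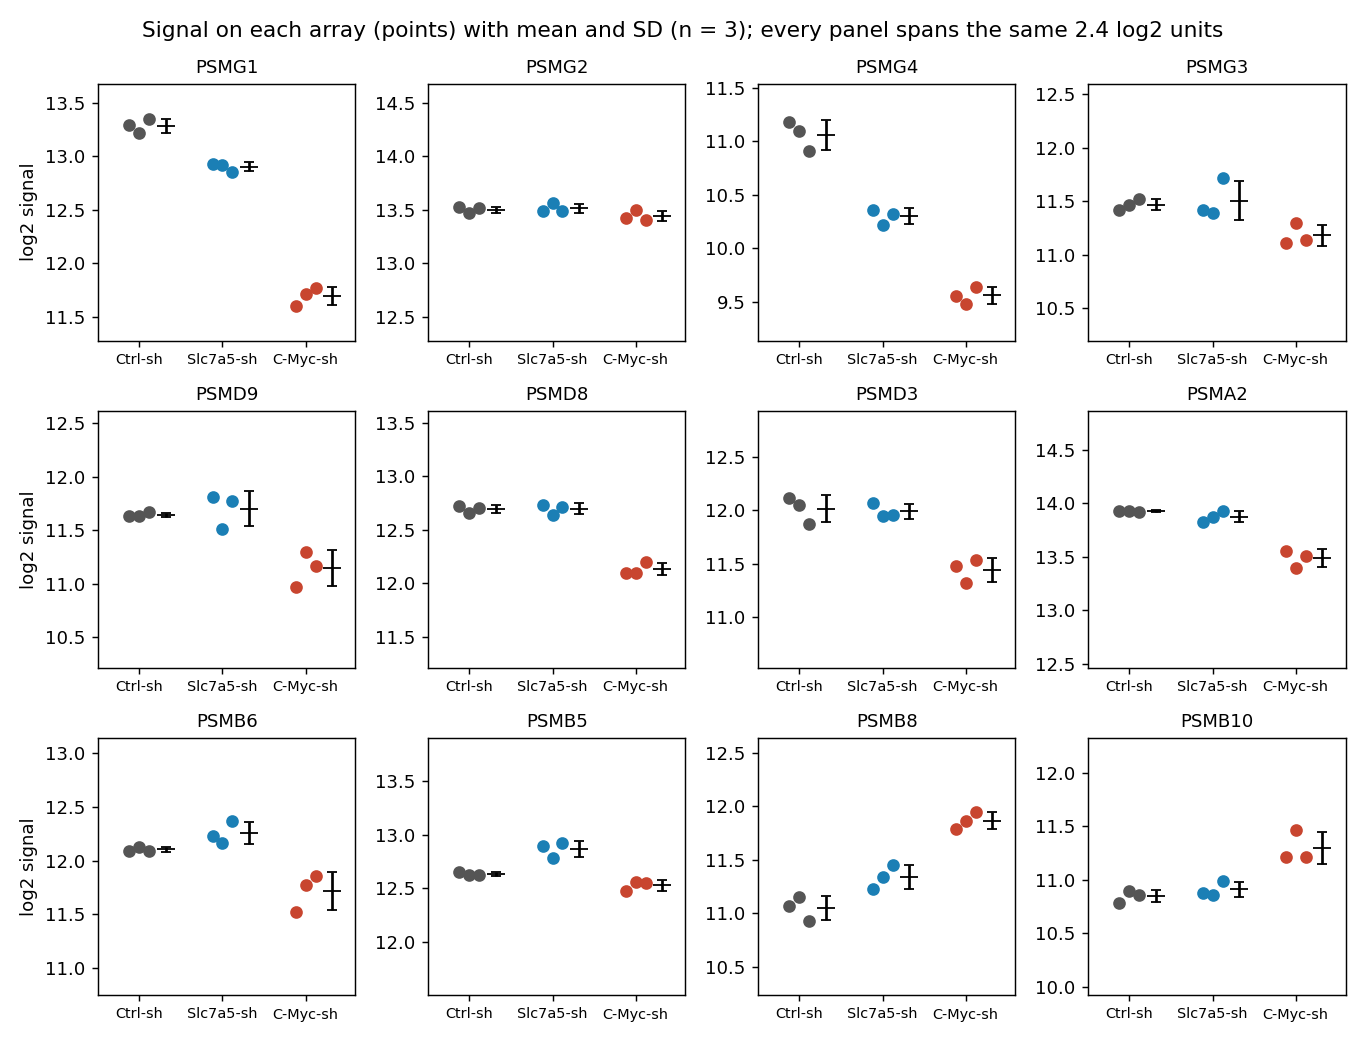
Log2 signal (y axis) of 12 members on each array, by group (x axis); points are arrays, the bar beside them is the mean ± SD (n = 3), and all panels span an equal range. PSMG1 and PSMG4 step down from Ctrl-sh to Slc7a5-sh to C-Myc-sh, while their partners PSMG2 and PSMG3 move by at most 0.06 and 0.29 from control, and PSMB8 steps up.

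In the alpha ring, 4 of the 6 tested genes fell in C-Myc-sh and PSMA1 rose (median log2 change -0.25). As deposited, 83.3% were thus called, against 54.9% of all genes tested. After quantile normalization, though, 2 fell and 1 rose (median -0.05). PSMA2 measured 13.93, 13.93 and 13.91 in Ctrl-sh, 13.83, 13.87 and 13.93 in Slc7a5-sh, and 13.56, 13.39 and 13.50 in C-Myc-sh. C-Myc-sh lay below every other array, at -0.44 (SE 0.05, adjusted p = 4.7e-06), and Slc7a5-sh reached into the control range (-0.05, SE 0.05). PSMA3 measured 13.16, 13.18 and 13.16 in Ctrl-sh, 13.03, 13.04 and 12.90 in Slc7a5-sh, and 12.83, 12.74 and 12.91 in C-Myc-sh. Both knockdowns of PSMA3 were below control without overlap, by -0.34 in C-Myc-sh (SE 0.06, adjusted p = 0.00012) and -0.18 in Slc7a5-sh (SE 0.06, adjusted p = 0.033). The mean of all its probe sets gave 0.00 for C-Myc-sh. That mean took in dim probe sets, with mean log2 signals of 6.29 and 6.20, near the filter level of 5.77. The Slc7a5-sh call of PSMA3 was lost in 9 of 18 alternatives. PSMA7 measured 13.53, 13.56 and 13.57 in Ctrl-sh, 13.53, 13.44 and 13.66 in Slc7a5-sh, and 13.16, 13.33 and 13.29 in C-Myc-sh. Its C-Myc-sh change of -0.29 (SE 0.06, adjusted p = 0.001) became -0.08 and lost its call after quantile normalization.

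PSMA1 measured 13.33, 13.36 and 13.29 in Ctrl-sh, 13.23, 13.27 and 13.29 in Slc7a5-sh, and 13.39, 13.49 and 13.47 in C-Myc-sh. The C-Myc-sh arrays were just above control, a change of 0.12 (SE 0.05, adjusted p = 0.046) that lost its call in 10 of 17 alternatives. PSMA4 fell by 0.22 on the log2 scale in C-Myc-sh (SE 0.06, adjusted p = 0.0044) and stood at -0.02, uncalled, after quantile normalization. PSMA5 was called in neither knockdown, with changes of -0.09 and -0.06. In Slc7a5-sh the changes of the 6 alpha genes ran from -0.18 to -0.0092, with PSMA3 called, and from -0.15 to 0.03 with 0 called after quantile normalization.

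In Slc7a5-sh the changes of the 7 genes of the constitutive beta ring were all above 0, from 0.03 to 0.23 and from 0.04 to 0.25 after quantile normalization, with PSMB5 and PSMB7 called under both. As deposited that was 28.6% called, against 25.3% of all genes tested. Without probe sets ending in _s_at or _x_at, though, PSMB2 was at -0.62, called lower, and PSMB1 at -0.45, uncalled. These values came from dimmer probe sets, with mean log2 signals of 7.95 for PSMB2 and 6.21 for PSMB1. The probe sets used above had means of 13.67 and 14.24. In C-Myc-sh, 3 of the 7 were called lower (PSMB3, PSMB6 and PSMB7) and 0 higher, with a median of -0.11. This was 42.9%, against 26.2% of all genes tested called lower and 54.9% over both directions. Quantile normalization instead gave 1 lower and 3 higher and a median of 0.07. Compared directly, 4 of the 7 (PSMB3, PSMB5, PSMB6 and PSMB7) were lower in C-Myc-sh than in Slc7a5-sh and 0 higher (median -0.21). Over both directions 57.1% of the 7 were called, against 49.5% of all genes tested. After quantile normalization 3 were lower and 1 higher, with a median of 0.0004. PSMB5, the chymotrypsin-like subunit, measured 12.66, 12.63 and 12.62 in Ctrl-sh, 12.89, 12.78 and 12.92 in Slc7a5-sh, and 12.47, 12.56 and 12.55 in C-Myc-sh. As deposited, its Slc7a5-sh arrays were above and its C-Myc-sh arrays below control, while quantile normalization put the C-Myc-sh change at 0.06, uncalled. PSMB5 rose by 0.23 in Slc7a5-sh (SE 0.05, adjusted p = 0.0068), a call kept in all 18 alternatives, and its C-Myc-sh change of -0.11 (95% confidence interval -0.23 to 0.01) was not called.

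PSMB7, the trypsin-like subunit, measured 13.36, 13.39 and 13.37 in Ctrl-sh, 13.56, 13.49 and 13.59 in Slc7a5-sh, and 13.23, 13.18 and 13.28 in C-Myc-sh. Slc7a5-sh was above control by 0.17 (SE 0.05, adjusted p = 0.019) and C-Myc-sh at -0.14 (SE 0.05, adjusted p = 0.024). Quantile normalization left 0.21 in Slc7a5-sh but gave 0.07, uncalled, in C-Myc-sh, and the calls were lost in 6 and 7 of 18 alternatives. PSMB6, the caspase-like subunit, measured 12.09, 12.13 and 12.09 in Ctrl-sh, 12.23, 12.17 and 12.37 in Slc7a5-sh, and 11.52, 11.77 and 11.86 in C-Myc-sh. C-Myc-sh lay below all other arrays of PSMB6, at -0.39 (SE 0.08, adjusted p = 0.00085), and Slc7a5-sh above control at 0.15 (SE 0.08, adjusted p = 0.19), which was not called. PSMB3 measured 13.74, 13.73 and 13.67 in Ctrl-sh, 13.74, 13.70 and 13.80 in Slc7a5-sh, and 13.52, 13.51 and 13.60 in C-Myc-sh. PSMB3 was lower in C-Myc-sh (-0.17, SE 0.05, adjusted p = 0.009) as deposited and at 0.04 after quantile normalization. PSMB1, PSMB2 and PSMB4 were called in neither knockdown as deposited, with C-Myc-sh changes of -0.08, -0.05 and 0.12. After quantile normalization all 3 were called higher in C-Myc-sh, at 0.13, 0.16 and 0.33 (adjusted p = 0.026, 0.0019 and 9.1e-06).

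Both immuno-subunits rose in C-Myc-sh under either scaling, and they were the only beta genes called higher there as deposited. PSMB8 measured 11.07, 11.16 and 10.93 in Ctrl-sh, 11.23, 11.34 and 11.46 in Slc7a5-sh, and 11.79, 11.87 and 11.95 in C-Myc-sh. The 3 groups did not overlap and stood in that order. PSMB8 rose 1.76-fold in C-Myc-sh (log2 change 0.82, SE 0.08, adjusted p = 5.1e-07; 0.86 after quantile normalization) and 1.22-fold in Slc7a5-sh (0.29, SE 0.08, adjusted p = 0.015). The Slc7a5-sh call was lost without Ctrl-sh replicate 3 (0.23, adjusted p = 0.073), without Slc7a5-sh replicate 3 (0.23, adjusted p = 0.058) and without the variance trend (adjusted p = 0.059). PSMB8 has 1 probe set here, which ends in _s_at. PSMB10 measured 10.78, 10.90 and 10.86 in Ctrl-sh, 10.88, 10.86 and 10.99 in Slc7a5-sh, and 11.21, 11.46 and 11.21 in C-Myc-sh. C-Myc-sh was above all other arrays of PSMB10, 1.37-fold of control (0.45, SE 0.08, adjusted p = 0.00025), and Slc7a5-sh overlapped control (0.06, SE 0.08).

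An immuno-subunit can be set against the constitutive subunit whose place it takes, within each array, as the log2 difference less its mean over the Ctrl-sh arrays. For PSMB8 minus PSMB5 this gave -0.0043, 0.11 and -0.11 in Ctrl-sh, -0.08, 0.14 and 0.12 in Slc7a5-sh, and 0.90, 0.89 and 0.99 in C-Myc-sh. The C-Myc-sh arrays stood apart and the other groups overlapped. The difference was 0.93 higher in C-Myc-sh than in Ctrl-sh, a ratio of 1.90 (exact two-sided permutation test, p = 0.1, the smallest that 3 against 3 arrays allow), and 0.06 higher in Slc7a5-sh (exact permutation p = 0.5). For PSMB10 minus PSMB7 the values were -0.05, 0.03 and 0.01 in Ctrl-sh, -0.16, -0.10 and -0.07 in Slc7a5-sh, and 0.51, 0.81 and 0.46 in C-Myc-sh. C-Myc-sh was again above all other arrays, by 0.59 over Ctrl-sh or a ratio of 1.51, and Slc7a5-sh was below control by -0.11, each with the smallest exact permutation p of 0.1; the mean of probe sets turned the Slc7a5-sh value to 0.045. Of the 6 group comparisons of both pairs, 5 reached that smallest p, and none can pass 0.05 in this design. After quantile normalization the C-Myc-sh differences were 0.80 and 0.38.

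**Figure D3:**
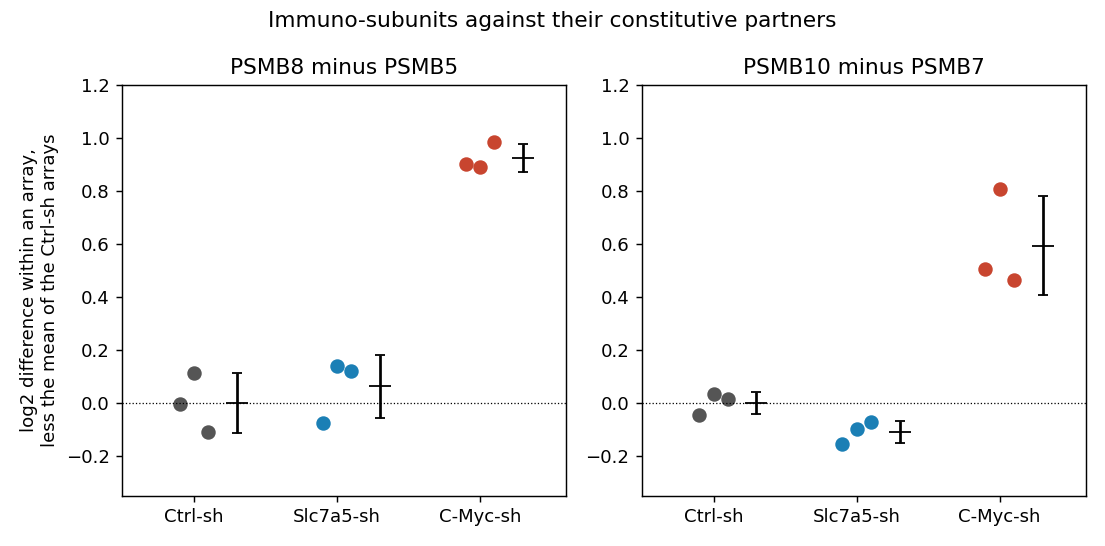
Log2 signal of an immuno-subunit minus that of its constitutive partner on each array, less the mean of the Ctrl-sh arrays (y axis), by group (x axis); points are arrays and bars the mean ± SD (n = 3). The 3 C-Myc-sh arrays lie at 0.89 to 0.99 for PSMB8 minus PSMB5 and at 0.46 to 0.81 for PSMB10 minus PSMB7, above all other arrays.

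In C-Myc-sh, 4 of the 6 lid genes of the cap fell and PSMD6 rose (median log2 change -0.31). Lid genes were thus called in 83.3%, against 54.9% of all genes tested. Quantile normalization gave 4 lower and 2 higher (median -0.18). Without probe sets ending in _s_at or _x_at, 5 lid genes had a value, with 2 lower and 1 higher (median -0.06). In Slc7a5-sh as deposited, PSMD11 was the 1 lid gene called (16.7%, against 25.3% of all genes tested), and the lid median was 0.0052. Quantile normalization gave 1 lower (PSMD11) and 1 higher (PSMD14) there. PSMD3 measured 12.11, 12.05 and 11.88 in Ctrl-sh, 12.07, 11.95 and 11.95 in Slc7a5-sh, and 11.48, 11.32 and 11.53 in C-Myc-sh. PSMD8 measured 12.72, 12.66 and 12.71 in Ctrl-sh, 12.74, 12.64 and 12.72 in Slc7a5-sh, and 12.10, 12.10 and 12.20 in C-Myc-sh. For these 2 lid subunits Slc7a5-sh and control overlapped, with changes of -0.02 (SE 0.08) and 0.00 (SE 0.05), and C-Myc-sh lay apart below both. PSMD3 fell by 0.57 (SE 0.08, adjusted p = 1.5e-05) and PSMD8 by 0.56 (SE 0.05, adjusted p = 5.3e-07) on the log2 scale in C-Myc-sh.

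PSMD11, a lid subunit that contacts the core, measured 12.89, 12.88 and 12.86 in Ctrl-sh, 12.78, 12.65 and 12.65 in Slc7a5-sh, and 12.59, 12.42 and 12.53 in C-Myc-sh. The groups of PSMD11 did not overlap, with changes of -0.18 in Slc7a5-sh (SE 0.06, adjusted p = 0.036) and -0.36 in C-Myc-sh (SE 0.06, adjusted p = 0.00011). Its probe set ends in _s_at, and another one gave -0.26 and -0.05, both uncalled; the Slc7a5-sh call was lost in 8 of 18 alternatives. PSMD12 measured 12.48, 12.53 and 12.46 in Ctrl-sh, 12.48, 12.51 and 12.50 in Slc7a5-sh, and 12.15, 12.22 and 12.30 in C-Myc-sh. On the probe set used, only its C-Myc-sh arrays stood apart, at -0.27 (SE 0.06, adjusted p = 0.00084), and at -0.14 after quantile normalization. A second probe set, with a mean log2 signal of 11.47, gave -0.24 (SE 0.07) in Slc7a5-sh and -0.36 (SE 0.07) in C-Myc-sh. Each of them ends in _s_at. PSMD6 measured 12.32, 12.15 and 12.23 in Ctrl-sh, 12.29, 12.21 and 12.35 in Slc7a5-sh, and 12.37, 12.52 and 12.59 in C-Myc-sh. PSMD6 was the lid gene that rose in C-Myc-sh as deposited, by 0.26 (SE 0.07, adjusted p = 0.0052), and by 0.40 after quantile normalization. PSMD14, the deubiquitinase of the lid, was called in neither knockdown (0.11 in Slc7a5-sh; the C-Myc-sh value was -0.06, where quantile normalization gave a called 0.11).

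Among the 5 ATPases, which turn the ATP they split into unfolding force, 0 were called in Slc7a5-sh (changes from 0.0025 to 0.13). C-Myc-sh had 2 calls, 1 each way, or 2 higher and 0 lower after quantile normalization. As deposited, calls covered 40.0% of the ATPases in C-Myc-sh, against 54.9% of all genes tested, and 0 in Slc7a5-sh, against 25.3%. PSMC4 measured 11.38, 11.26 and 11.16 in Ctrl-sh, 11.52, 11.19 and 11.27 in Slc7a5-sh, and 11.56, 11.49 and 11.57 in C-Myc-sh. Its C-Myc-sh arrays lay above control (0.27, SE 0.09, adjusted p = 0.015), a call lost without Ctrl-sh replicate 3 (0.22, adjusted p = 0.074). PSMC6 measured 12.26, 12.21 and 12.36 in Ctrl-sh, 12.31, 12.27 and 12.27 in Slc7a5-sh, and 12.14, 12.09 and 12.12 in C-Myc-sh. PSMC6 was lower in C-Myc-sh (-0.16, SE 0.06, adjusted p = 0.025) and uncalled after quantile normalization (-0.05). PSMC1, PSMC2 and PSMC3 were called in neither knockdown as deposited. Quantile normalization called PSMC2 higher in C-Myc-sh (0.31, adjusted p = 0.0049). Its other probe sets, with mean log2 signals of 11.08 and 10.08, each gave -0.19 in Slc7a5-sh, against 0.09 for the one used. For C-Myc-sh minus Slc7a5-sh each of them gave 0.32, against 0.03. The base subunits outside the ATPase ring were the scaffolds PSMD1 and PSMD2 and the ubiquitin receptor PSMD4. As deposited, 0 of these 3 were called in either knockdown, with C-Myc-sh changes from -0.13 to 0.03. The called shares of all genes tested were 54.9% for C-Myc-sh and 25.3% for Slc7a5-sh. Quantile normalization called PSMD4, but not PSMD1 or PSMD2, higher in each knockdown. Its changes were then 0.20 for C-Myc-sh (adjusted p = 0.0033) and 0.17 for Slc7a5-sh (adjusted p = 0.021).

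PSMC3IP, the recombination factor, measured 9.93, 9.87 and 9.91 in Ctrl-sh, 10.19, 10.01 and 10.09 in Slc7a5-sh, and 9.89, 9.71 and 9.71 in C-Myc-sh, with changes of 0.19 and -0.14 that were not called. PSMA8, the alpha subunit known from testis, was the 1 member below the filter level, with a mean of 5.52, and was not tested. PSMA8 gave 5.03, 4.39 and 4.84 in Ctrl-sh, 5.27, 6.0 and 6.20 in Slc7a5-sh, and 6.14, 5.34 and 6.46 in C-Myc-sh. Both knockdowns of PSMA8 lay above control, at signals near background.

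The knockdowns were also compared directly, C-Myc-sh minus Slc7a5-sh, where the Ctrl-sh arrays entered only the estimate of the spread. Of 37 members, 21 were lower in C-Myc-sh, 56.8% against 25.1% of all genes tested, and 5 were higher, 13.5% against 24.4%, as deposited; quantile normalization gave 12 lower and 9 higher, and a fit of the 6 arrays alone 19 lower and 5 higher. Over both directions 70.3% of the members were called, against 49.5% of all genes, and the arrays of the 2 knockdowns did not overlap for 20 members on the lower side (27.7% of all genes) and 4 on the higher side (28.8%). Without C-Myc-sh replicate 3, 3 were higher and 20 lower. After quantile normalization, 2923 of all 11256 genes tested were lower in C-Myc-sh and 2594 higher. PSMG1 was lower in C-Myc-sh than in Slc7a5-sh (log2 difference -1.21, SE 0.06, adjusted p = 6.5e-10), and PSMG4 differed by -0.74 (SE 0.09, adjusted p = 8.7e-06). The lid genes PSMD8 and PSMD3 and the chaperone PSMD9 differed by -0.56, -0.55 and -0.56, and PSMD12 by -0.27. All of these calls, other than that of PSMG4 without probe sets ending in _s_at or _x_at, held in each alternative that gave a value. PSMD9 and PSMD12 have only probe sets ending in _s_at, so that setting gave them no value. The second probe set of PSMD12 gave a direct difference of -0.12 (SE 0.07).

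The 3 constitutive catalytic genes were lower in C-Myc-sh than in Slc7a5-sh: PSMB6 by -0.54 (SE 0.08, adjusted p = 5.5e-05), PSMB5 by -0.34 (SE 0.05, adjusted p = 0.00012) and PSMB7 by -0.32 (SE 0.05, adjusted p = 8.6e-05). Their arrays in the 2 knockdowns did not overlap. The PSMB5 and PSMB6 calls held in all 18 alternatives, and that of PSMB7 in 17, all but the mean of its probe sets (-0.13). The immuno-subunits were higher, PSMB8 by 0.53 (SE 0.08, adjusted p = 5.7e-05) and PSMB10 by 0.39 (SE 0.08, adjusted p = 0.0011). In the alpha ring, PSMA2 differed by -0.39 and PSMA7 by -0.28 (adjusted p = 2.1e-05 and 0.0016), and PSMA1 by 0.18 (adjusted p = 0.0063). The PSMA7 call was lost after quantile normalization (-0.11) and the PSMA1 call for the mean of its probe sets (0.09).

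PSMC1 measured 12.94, 12.80 and 12.77 in Ctrl-sh, 12.93, 12.98 and 12.78 in Slc7a5-sh, and 12.58, 12.74 and 12.76 in C-Myc-sh. PSMC3 measured 12.22, 12.16 and 12.27 in Ctrl-sh, 12.30, 12.35 and 12.41 in Slc7a5-sh, and 12.14, 12.17 and 12.18 in C-Myc-sh. For both ATPases the C-Myc-sh arrays were below those of Slc7a5-sh without overlap. Their differences of -0.20 and -0.19 (adjusted p = 0.027 and 0.011) and that of PSMC6, -0.16 (adjusted p = 0.026), lost their calls after quantile normalization. PSMC3IP was lower as well (-0.33, adjusted p = 0.0089), a call held in all 17 alternatives that gave a value.

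Small changes of bright genes in C-Myc-sh depended on how the arrays were scaled. Quantile normalization raised the members' C-Myc-sh changes by a median of 0.15, from -0.11 to 0.23, while the median shift over all genes tested was -0.11 and that over the 5030 genes with a mean of 10 or more was 0.02. In that comparison, 11 of the 23 calls held in every alternative that gave a value: PSMB8, PSMB10 and PSMD6 higher, and PSMA2, PSMB6, PSMD3, PSMD8, PSMD9, PSMD12, PSMG1 and PSMG3 lower. In Slc7a5-sh it was 2 of 7, PSMB5 higher and PSMG1 lower. Among the C-Myc-sh calls that held, PSMB8, PSMD9 and PSMD12 had no value without probe sets ending in _s_at or _x_at. Where a member had a second probe set with a mean of 10 or more (14 probe sets of 10 genes), its C-Myc-sh change had the same sign in 14 of 14, its Slc7a5-sh change in 7 of 14, and the direct difference in 12 of 14.

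**Figure D4:**
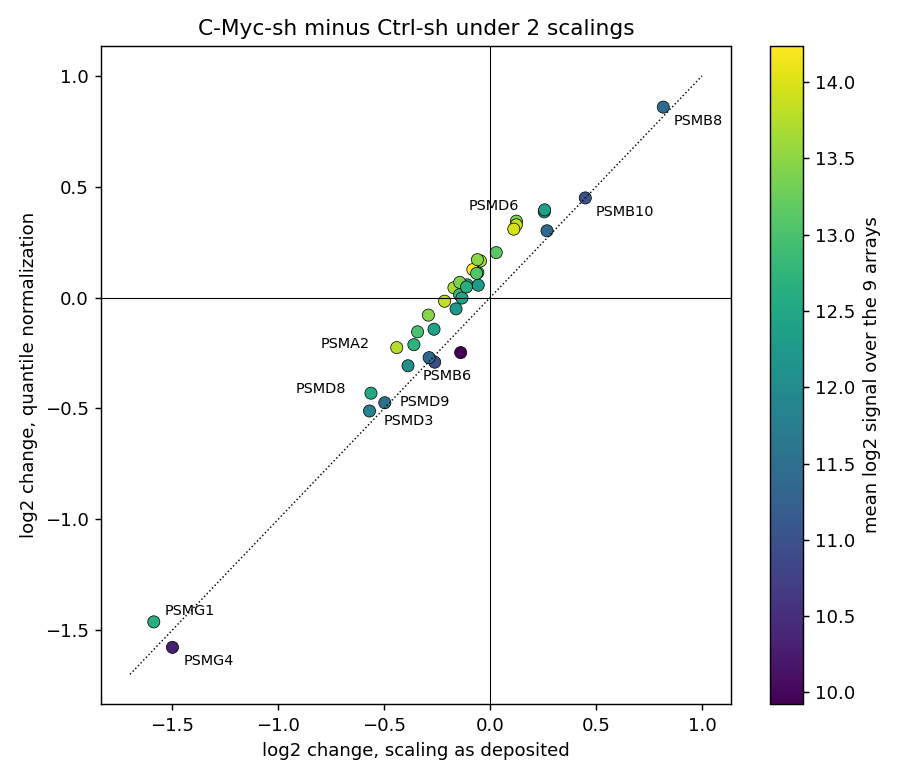
Log2 change from Ctrl-sh to C-Myc-sh of the 37 tested members as deposited (x axis) and after quantile normalization (y axis), coloured by mean signal; the dotted line marks equal values. Brighter genes lie above the line, and the sign of those near 0 changes, while PSMG1, PSMG4, PSMB8 and PSMB10 stay far from 0.

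A list of 42 further proteasome and ubiquitin genes outside the symbol rule held 34 measured ones. Of these, 10 were called higher and 6 lower in Slc7a5-sh, and 12 higher and 11 lower in C-Myc-sh. Over both directions this was 47.1% in Slc7a5-sh, against 25.3% of all genes tested, and 67.6% in C-Myc-sh, against 54.9%. Among alternative caps of the core, PSME1, a subunit of the interferon-inducible activator, rose by 0.61 in C-Myc-sh (SE 0.06, adjusted p = 3.4e-07) and stood at 0.05 in Slc7a5-sh, uncalled. PSME3, which forms the nuclear activator, fell in both, by -1.02 in C-Myc-sh (SE 0.08, adjusted p = 6.9e-08) and -0.32 in Slc7a5-sh (SE 0.08, adjusted p = 0.0094). PSME4 was called in neither (-0.07 and 0.06). POMP, the maturation factor of the core, rose in both, by 0.43 (SE 0.05, adjusted p = 3.6e-06) and 0.24 (SE 0.05, adjusted p = 0.0027), the latter call lost without probe sets ending in _s_at or _x_at (0.16). ADRM1, a ubiquitin receptor of the cap, was called in neither (0.06 and 0.14), and UCHL5, the deubiquitinase that ADRM1 recruits, was at -1.15 in C-Myc-sh (SE 0.08, adjusted p = 1.8e-08) and -0.10, uncalled, in Slc7a5-sh.

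NFE2L1 rose in both knockdowns, by 0.96 in C-Myc-sh (SE 0.07, adjusted p = 4.7e-08) and 0.57 in Slc7a5-sh (SE 0.07, adjusted p = 9.1e-05). NGLY1, the deglycosylase known to process its protein, was lower in both (-0.89, adjusted p = 3.1e-08, and -0.28, adjusted p = 0.0068). Without probe sets ending in _s_at or _x_at, though, NGLY1 was at 0.12 and 0.0056, uncalled. The mean of its probe sets kept the C-Myc-sh call but gave -0.14, uncalled, in Slc7a5-sh. NFE2L2 rose by 0.46 and 0.44 (adjusted p = 7.4e-06 and 8.9e-05), values that turned to -0.19 and -0.06 for the mean of its probe sets. ZFAND2A, a stress-inducible binder of the cap, rose by 0.72 and 0.78 (adjusted p = 1.6e-07 and 1.8e-06). UBE3C, a ubiquitin ligase of the proteasome, rose by 0.47 in Slc7a5-sh (adjusted p = 0.00034) and 0.33 in C-Myc-sh (adjusted p = 0.0012), and the mean of its probe sets gave 0.76 and 0.23, both uncalled. IRF1, an interferon-response factor, rose by 1.10 in C-Myc-sh (SE 0.13, adjusted p = 5.5e-06) and 0.78 in Slc7a5-sh (SE 0.13, adjusted p = 0.00075).

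Of the factors that carry ubiquitin-tagged proteins to the cap, RAD23B was at -1.36 in C-Myc-sh (SE 0.08, adjusted p = 2.3e-09) and at 0.29 in Slc7a5-sh (SE 0.08, adjusted p = 0.016). The Slc7a5-sh call of RAD23B was lost in 5 of 18 alternatives, with 0.03 without probe sets ending in _s_at or _x_at, 0.13 for the mean of its probe sets and 0.20 without Slc7a5-sh replicate 1. The direct difference of RAD23B was -1.65 (SE 0.08, adjusted p = 5.8e-10). UBQLN1 fell in both, by -0.58 (SE 0.05, adjusted p = 1.2e-07) and -0.31 (SE 0.05, adjusted p = 0.00036), but the mean of its probe sets gave -0.02, uncalled, in Slc7a5-sh. UBQLN4 was at -0.74 in C-Myc-sh (adjusted p = 3.2e-05) and 0.24, uncalled, in Slc7a5-sh, with 0.41 in C-Myc-sh for the mean of its probe sets.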

How the data were processed

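Total RNA was amplified and biotin-labelled from the 3′ end and hybridised to 9 arrays, per the labels' protocols. The deposited values are log2 signals, 1 per probe set; the submitters' processing notes name MAS5 without a version. On the linear scale the mean without the lowest and highest 2% was 497 on each array. Probe sets were named through the platform annotation, and those with several symbols were left out. Genes with a mean of at least 5.77 (the median of 54613 probe sets, 54.6 linear) were tested: 11250 of 19775. R 4.3.3 and limma 3.58.1 fitted 3 group means over the 9 arrays with a variance trend in eBayes (degrees of freedom 6 residual, 8.21 prior), two-sided, with Benjamini-Hochberg adjustment over all tested genes; the script was tested on simulated data. Same-numbered arrays of different groups did not deviate together (9 correlations from -0.02 to 0.02). The number of arrays limits the precision. Every member is accounted for; full values are given for the immuno-subunits, chaperones, the 3 called members with the largest change of each role and comparison, members called in opposite directions and those below the filter. Among other genes, the 6 with the smallest p per comparison, some of which are printed, the PSME genes, ADRM1, POMP and NFE2L1 were eligible. Alternatives were other scalings, filters, probe-set choices, variance models, a replicate block and leaving out each array. Members and lists were chosen with earlier results of these data known.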

Additional observations from a re-analysis of the deposited data

How the results depend on the processing

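Each comparison was refitted under 18 alternatives, 9 of which left out 1 array. Quantile normalization gave 5 members higher in Slc7a5-sh, 13 higher in C-Myc-sh, and 9 higher and 12 lower in the direct comparison. Without the variance trend 1, 3 and 3 members were higher, and 2 lower in Slc7a5-sh. Without a filter 2 were lower in Slc7a5-sh. Averaging a gene's probe sets, 2 were lower in Slc7a5-sh, and 1581 of all 10176 genes tested were called, against 2843 of 11250 as reported. Without _s_at and _x_at probe sets, 27 members had a value, 3 were higher in C-Myc-sh and 13 lower in the direct comparison. Leaving out 1 array gave 1 to 4 higher and 2 to 4 lower in Slc7a5-sh, 3 to 6 higher and 14 to 17 lower in C-Myc-sh, and 3 to 6 higher and 17 to 21 lower directly. With the replicate number as a block, members higher and lower were 3 and 3, 5 and 17, and 6 and 22; the numbers pair no arrays. Alternatives for the partner differences were chosen after seeing the data: quantile normalization gave 0.80 for PSMB8 minus PSMB5 in C-Myc-sh, and 0.38 and, directly, 0.54 for PSMB10 minus PSMB7; the mean of probe sets gave 0.045 for the latter in Slc7a5-sh, reversed from -0.11, and 0.52 directly. Without 1 array they ranged from 0.01 to 0.13, 0.87 to 0.98 and 0.79 to 0.90 for the first pair, and from -0.13 to -0.09, 0.49 to 0.66 and 0.60 to 0.77 for the second.

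Among changes called as reported or in the alternative, signs turned as follows. Changes that turned but were called in neither are not listed, and the cause was not tested. Quantile normalization in C-Myc-sh turned PSMB1 (0.13), PSMB2 (0.16), PSMB3 (0.044), PSMB7 (0.068), PSMD14 (0.11), PSMG2 (0.17), SEM1 (0.15) and USP14 (0.042), and directly PSMA4 (0.024), PSMB3 (0.0004) and UBB (0.13). The mean of all probe sets turned PSME4 (-0.40), NFE2L2 (-0.065) and UBA1 (0.042) in Slc7a5-sh, PSMD5 (0.61), NFE2L2 (-0.19) and UBQLN4 (0.41) in C-Myc-sh, and directly PSMA3 (0.0061), PSMD11 (0.020), PSME4 (0.21), TXNL1 (0.33) and UBQLN4 (0.0061). Without _s_at and _x_at probe sets, PSMB2 (-0.62), PSMG4 (0.38) and NGLY1 (0.0056) turned in Slc7a5-sh, NGLY1 (0.12) in C-Myc-sh, and PSMD11 (0.22) and NGLY1 (0.11) directly.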
